A study of Mus musculus with 21 samples.

Results

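The genes described here are 44 factors of ribosome biogenesis, of 21372 genes tested on 21 arrays of mouse intestinal organoids. Members were the spots that carry one of the 44 gene symbols and are not control spots, with 1 probe a gene, the one with the highest mean sample intensity over all arrays. All 44 had a probe that passed the filter on dim signal. Of the 44, 27 had 1 probe and 17 had several, 65 probes in all.

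Organoids are epithelial cultures grown in gel, here from crypts of the mouse small intestine. Doxycycline was taken away 24 h before harvest on 4 vehicle-treated arrays (letters D to G). Compound 6 (4 arrays, D to G), compound 2 (3 arrays, A to C) and compound 9 (3 arrays, A to C) were given at 2 µM for 24 h with doxycycline present, and 7 vehicle arrays (A to G) also had doxycycline. Every group came from mice that carry M2-rtTA, the doxycycline-dependent activator, under the endogenous ROSA26 promoter, and a tet-O transgene for human, N-terminally myc-tagged ΔN89β-catenin, which lacks its N terminus. All cultures were first grown with doxycycline. The medium held EGF, Noggin and R-spondin 1, which itself raises Wnt signalling, and no organoids without the transgene were among the samples. The compounds inhibit CDK8 and CDK19, a pair of kinases that associate with Mediator, and belong to 1 chemical series of trisubstituted pyridines.

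Ribosomes are assembled mainly in the nucleolus. RNA polymerase I transcribes the precursor of the large ribosomal RNAs there, small nucleolar RNPs of the box C/D and box H/ACA classes guide its ribose methylation and pseudouridylation, and a sequence of processing complexes cuts and folds it into the small and the large subunit. Growing cells, such as the crypt cells of the intestine, keep these genes high, and many of them are known targets of the transcription factor Myc, which binds the E-box CACGTG and is itself a target of beta-catenin in intestinal cells.

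Promoter windows from 250 bases before to 50 bases after the annotated start were available from RefSeq (mouse GRCm38.p6) for 39 of the 44 genes. The motif CACGTG, which reads the same on both strands, stood in the windows of 7 of those 39 genes (17.9%), against 8.09% of all 27025 genes with a window. The motif CTTTGA, the core of the TCF site, searched on both strands and counted apart from the E-box, stood in 12.8% of the 39 genes, against 18.2% of all genes. The windows of Pes1, a large-subunit assembly factor, and of Utp20, a small-subunit one, are given whole because both genes are described below array by array. Pes1 lies at chr11:3963725-3964024 on the plus strand with the E-box starting 3 bases into the transcript, and Utp20 at chr10:88826765-88827064 on the minus strand with the E-box starting at base 38 of the transcript. Sequences run 5′ to 3′ along the gene, and capitals mark the E-box.
Pes1: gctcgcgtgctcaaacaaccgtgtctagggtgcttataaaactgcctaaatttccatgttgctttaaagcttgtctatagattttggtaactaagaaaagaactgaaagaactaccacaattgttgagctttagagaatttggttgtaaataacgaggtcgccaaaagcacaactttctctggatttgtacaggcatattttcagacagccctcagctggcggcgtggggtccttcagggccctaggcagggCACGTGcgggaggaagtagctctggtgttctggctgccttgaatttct
Utp20: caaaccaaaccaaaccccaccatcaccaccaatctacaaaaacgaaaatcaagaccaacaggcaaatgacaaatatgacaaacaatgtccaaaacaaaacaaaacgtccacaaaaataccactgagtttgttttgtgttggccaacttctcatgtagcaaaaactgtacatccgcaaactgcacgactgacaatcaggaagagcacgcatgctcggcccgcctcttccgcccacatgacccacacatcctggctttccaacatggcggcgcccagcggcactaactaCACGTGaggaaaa

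The E-boxes of the other 5 genes are shown with the bases on either side, so that the flanks can be compared. Those of Grwd1, Mybbp1a and Wdr43 began 35, 41 and 18 bases into the transcript, that of Nop2 lay at -60 relative to the start, and Rrn3 had a pair, at -215 and -48 relative to it. The stretches are at chr7:45830740-45830765 (Grwd1, minus strand), chr11:72441357-72441376 (Mybbp1a, plus), chr6:125131813-125131838 (Nop2, plus), chr16:13780474-13780499 and chr16:13780641-13780666 (Rrn3, plus) and chr17:71616222-71616247 (Wdr43, plus), all in GRCm38.p6.
Grwd1: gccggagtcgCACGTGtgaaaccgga
Mybbp1a: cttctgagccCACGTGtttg
Nop2: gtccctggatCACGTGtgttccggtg
Rrn3, distal: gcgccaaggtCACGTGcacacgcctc
Rrn3, proximal: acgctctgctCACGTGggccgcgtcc
Wdr43: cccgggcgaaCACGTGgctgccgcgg
A match describes these letters in this window and no binding was measured.

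Values below are log2 ratios of the sample over a mouse reference RNA that was hybridised to every array, so a level is relative to that reference and the levels of different genes cannot be ranked against each other. A change is the difference of such levels between a group and the vehicle arrays with the same letters, with its standard error (SE) from limma. A gene passed when its p, adjusted over all genes tested, was below 0.05. RNA was taken from whole cultures, so fewer cells of a type and less RNA per cell cannot be told apart. Of the probes used, 42 were well above background on all 21 arrays, Rrp1b on 18 and Utp20 on 19. As a check of the tissue label, the list median of the intestinal epithelium markers was 3.76 to 5.11 over the arrays, above the reference RNA on every array. Probe positions are given by the files in mm9: the probe of Gar1 lies at chr3:129527855-129527914, of Polr1a at chr6:71929251-71929310, of Noc3l at chr19:38863163-38863222 and of Pes1 at chr11:3879948-3880007, and the probe of Noc2l has no position there.

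Arrays A to C and D to G were scanned on different days, and the members' level differed between these sets. The median over the 44 genes on arrays D, E, F and G was -1.80, -1.82, -2.05 and -1.89 after withdrawal, -1.03, -1.08, -1.52 and -1.10 with compound 6, and -0.63, -0.60, -1.73 and -0.74 with vehicle. On arrays A, B and C it was -2.03, -2.18 and -1.87 with compound 2, -2.04, -1.95 and -1.93 with compound 9, and -2.02, -1.92 and -2.02 with vehicle. The vehicle arrays A to C thus lay at the level of the withdrawn arrays, although doxycycline was present and vehicle F lay below the other 3 vehicle arrays of its set. Set and scan day cannot be told apart, and no slide held arrays of both sets, so each group is compared only with vehicle arrays of its own letters. The file headers did not name a single scanner for all arrays, and levels were not compared by scanner. The median of 15 proliferation genes was likewise -3.83 on vehicle F, -1.83 to -1.74 on vehicles D, E and G, and -4.14 to -3.94 on vehicles A to C. Their part in the members' levels was not tested.

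**Figure D1:**
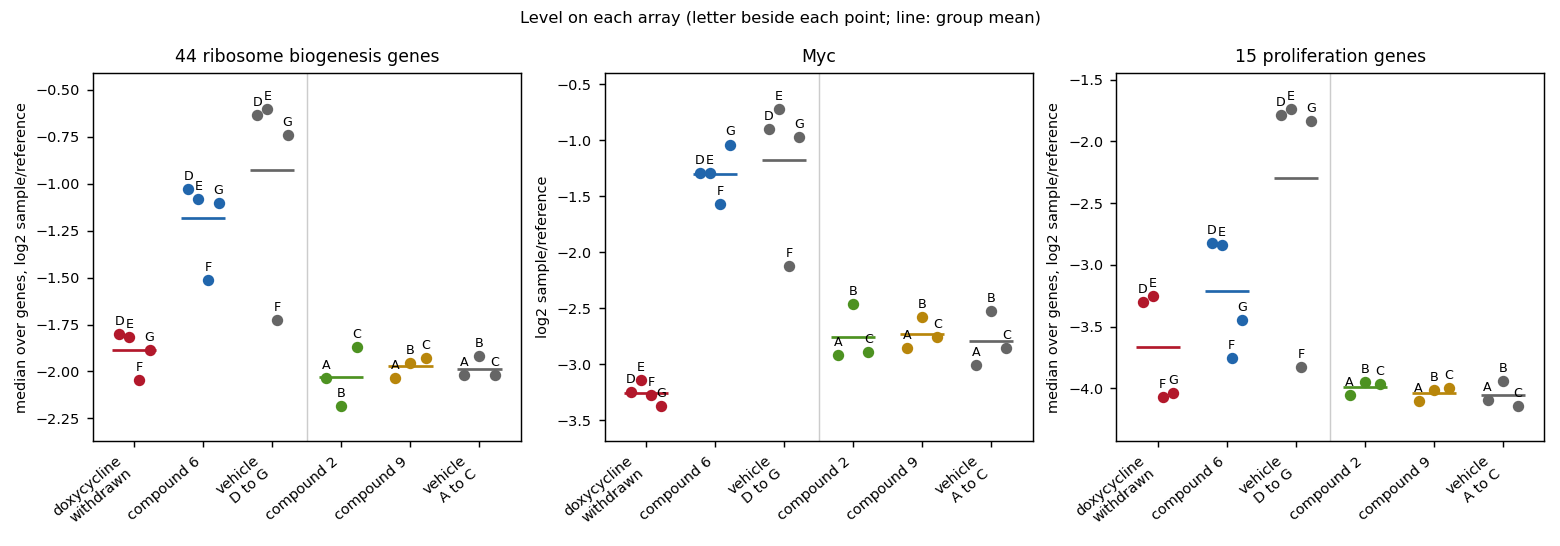
Median level of the 44 ribosome biogenesis genes (left), level of Myc (middle) and median level of 15 proliferation genes (right) on each array, as log2 sample over reference; each point is 1 array with its letter, the line is the group mean, and the grey line parts the 2 sets of letters. Vehicle F lies at -1.73 for the members, below vehicles D, E and G, and vehicles A to C lie between -2.02 and -1.92.

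Withdrawal of doxycycline asks what these genes do when induction of the mutant beta-catenin ends. Nearly the whole module fell: 41 of 44 genes were lower and none was higher, where 13.4% of all genes tested passed as lower and 7.25% as higher. The median change of the members was -0.89 on the log2 scale, against -0.01 over all genes, and single changes ran from -1.67 (Gar1) to 0.12 (Noc3l). Noc3l, Nob1 and Utp15 did not pass, with adjusted p-values of 0.477, 0.106 and 0.0520. With the letter as a block, which compares arrays of the same letter, 43 genes fell, Nob1 and Utp15 among them, at a background of 23.8% of all genes lower. For 26 members all 4 withdrawn arrays lay below all 4 vehicle arrays, which held for 8.98% of all genes, and for none all above, against 7.80% of all genes. In 42 of 44 members the withdrawn array was below the vehicle array of its letter in all 4 letters, the exceptions being Noc3l and Dkc1. Of all 21372 genes, 11493, 10681, 12062 and 11074 were lower in letters D, E, F and G. How many were lower in all 4 letters was not counted. Within letters D, E, F and G the median difference was -1.01, -1.10, -0.36 and -1.06, smallest in F, where the vehicle array was low. Without the vehicle F array 43 members fell, at a background of 21.7%, and the median change was -1.11. With no set term in the model, so that the withdrawn arrays were set against all 7 vehicle arrays, the call was lost for most members: 7 fell, at a background of 5.30%, with a median change of -0.48. Within slide 3 (3 withdrawn arrays, 1 vehicle array) the median difference was -1.19, and within slide 5 (1 and 2 arrays) it was -0.71.

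After withdrawal Myc, which is not a member, changed more than any of the 44 members. It read -3.25, -3.14, -3.28 and -3.37 on withdrawn arrays D to G, -1.29, -1.29, -1.57 and -1.04 with compound 6, and -0.90, -0.72, -2.12 and -0.97 with vehicle. The withdrawn arrays lay below every other array of their set, while compound 6 and vehicle overlapped. Its change was -2.08 ± 0.22 after withdrawal (adjusted p = 1.53e-05) and -0.12 ± 0.22 with compound 6 (adjusted p = 0.730, 95% interval -0.58 to 0.33). In the other set Myc read -2.92, -2.47 and -2.89 with compound 2, -2.86, -2.58 and -2.76 with compound 9, and -3.01, -2.52 and -2.86 with vehicle, and neither compound passed.

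**Figure D2:**
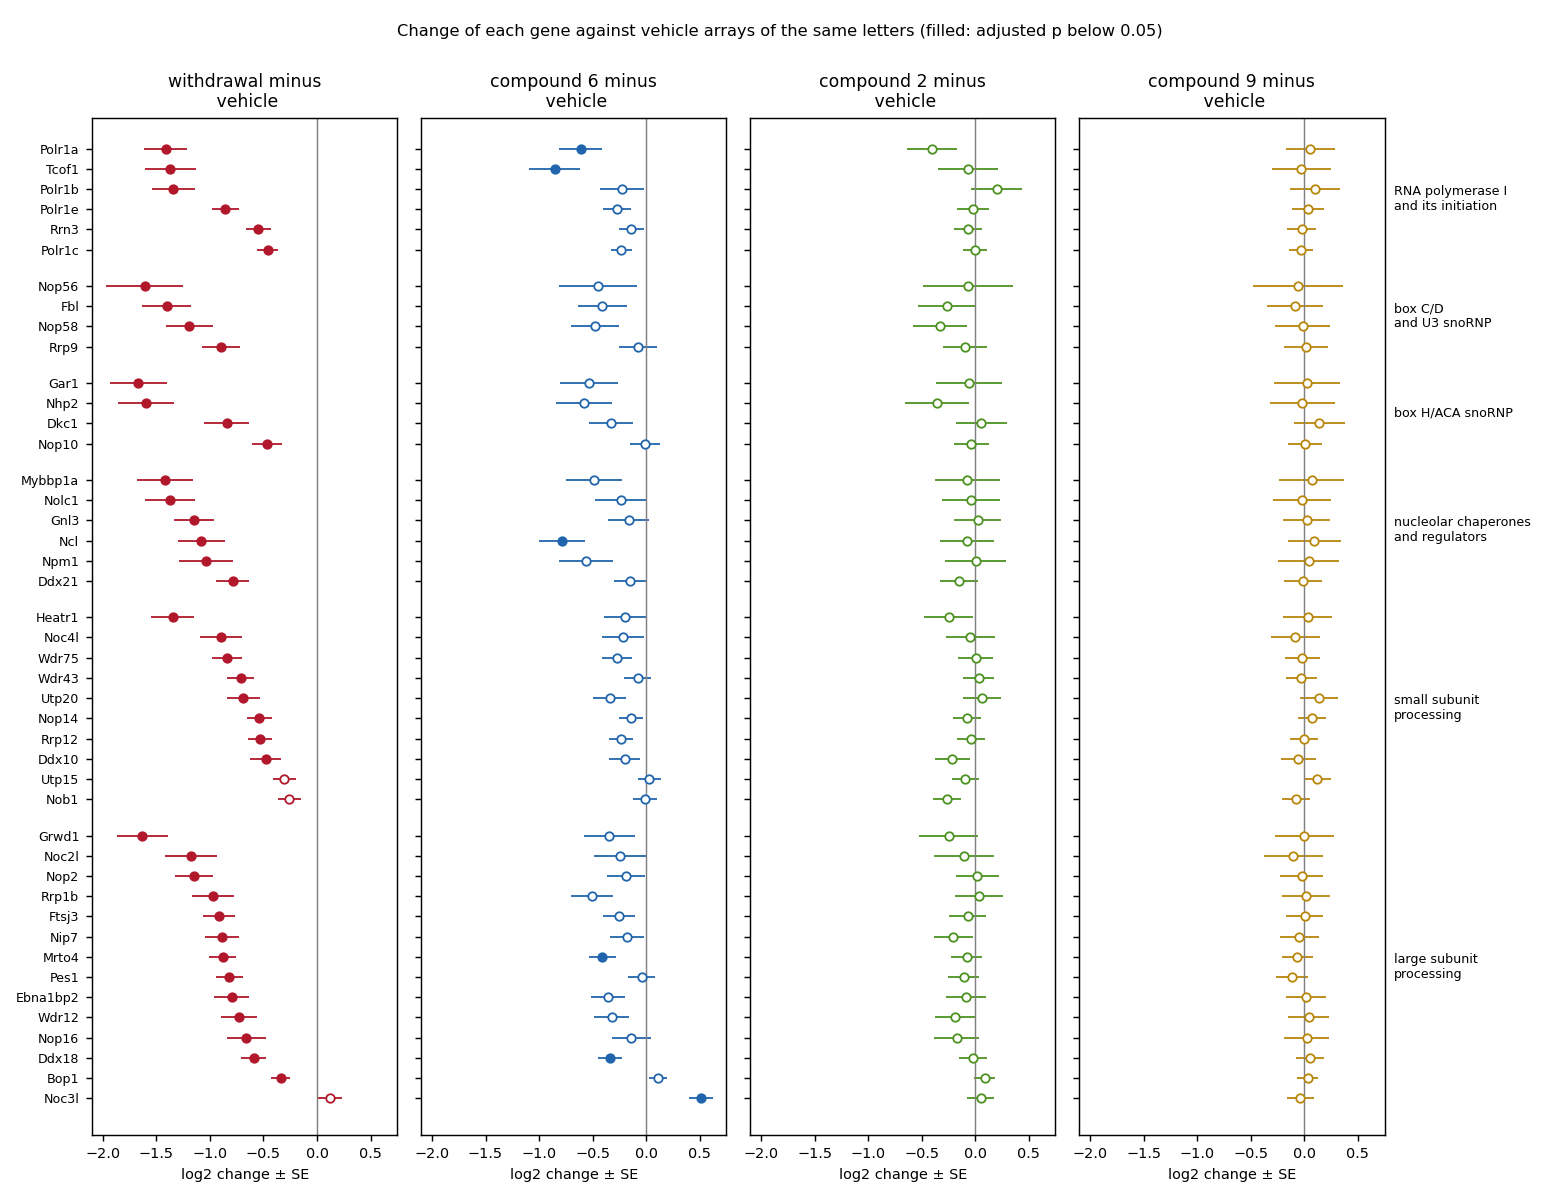
Change of each of the 44 genes against vehicle arrays of the same letters (log2 ± SE), in panels for withdrawal, compound 6, compound 2 and compound 9, grouped by role; filled points have an adjusted p below 0.05. After withdrawal 41 points are filled and negative, with compound 6 there are 5 negative and 1 positive (Noc3l), and with compounds 2 and 9 none is filled.

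The 6 genes of RNA polymerase I and its initiation all fell after withdrawal, against 13.4% of all genes, with a median change of -1.10. Polr1a, the largest subunit of the enzyme, read -2.43, -2.56, -2.86 and -2.76 on withdrawn arrays D to G, -1.74, -1.81, -2.16 and -1.70 with compound 6, and -0.87, -0.95, -2.17 and -0.97 with vehicle. The withdrawn arrays were all below the vehicle arrays, and the compound 6 arrays lay above the withdrawn ones and below vehicles D, E and G. The change after withdrawal was -1.41 ± 0.20 (adjusted p = 0.000297), a fall of the ratio to 0.376 of vehicle; a dimmer Polr1a probe, well above background on 6 arrays, changed by 0.11. Polr1b, the other large catalytic subunit, read -1.37, -1.34, -1.58 and -1.53 after withdrawal, -0.13, -0.45, -0.73 and -0.05 with compound 6, and 0.09, 0.28, -0.98 and 0.16 with vehicle. Its withdrawn arrays were apart from all others of the set, with a change of -1.34 ± 0.20 (adjusted p = 0.000427). Polr1c, a subunit shared with RNA polymerase III, changed least of the 6. It read -1.27, -1.16, -1.35 and -1.34 after withdrawal, -0.95, -0.99, -1.17 and -1.09 with compound 6, and -0.69, -0.62, -1.17 and -0.79 with vehicle. Withdrawn and vehicle arrays overlapped at vehicle F, and the change was -0.46 ± 0.10 (adjusted p = 0.00318).

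Tcof1, which encodes treacle, a nucleolar protein needed for ribosomal DNA transcription, read -2.37, -2.43, -2.73 and -2.54 after withdrawal, -1.69, -1.79, -2.38 and -2.16 with compound 6, and -0.71, -0.82, -2.25 and -0.82 with vehicle. Its withdrawn arrays were below all vehicle arrays, with a change of -1.37 ± 0.24 (adjusted p = 0.000991), whereas a dimmer probe of Tcof1 gave -0.93. Polr1e, another subunit, and Rrn3, the initiation factor that brings the polymerase to its promoter, changed by -0.86 ± 0.13 and -0.55 ± 0.12.

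All 4 genes of the box C/D and U3 particles fell, against 13.4% of all genes, with a median change of -1.30. Fbl, fibrillarin, the ribose methyltransferase of the box C/D particle, read -2.04, -2.001, -2.55 and -2.29 after withdrawal, -1.01, -1.12, -1.67 and -1.12 with compound 6, and -0.44, -0.39, -1.81 and -0.63 with vehicle. The withdrawn arrays did not overlap the vehicle arrays, and the change was -1.40 ± 0.23 (adjusted p = 0.000633). Nop56, a core protein of the same particle, had a larger change with a wider error. It read -2.62, -2.68, -3.50 and -2.94 after withdrawal, -1.44, -1.54, -2.47 and -1.64 with compound 6, and -0.70, -0.71, -2.95 and -0.93 with vehicle, so vehicle F lay among the withdrawn arrays. Its change was -1.61 ± 0.36 (adjusted p = 0.00481), and without vehicle F it was -2.15. Nop58, the partner of Nop56, read -2.66, -2.51, -2.99 and -2.76 after withdrawal, -1.83, -1.82, -2.46 and -1.96 with compound 6, and -1.22, -1.17, -2.53 and -1.23 with vehicle. Withdrawn and vehicle arrays again met at vehicle F, with a change of -1.19 ± 0.22 (adjusted p = 0.00147). Rrp9, a protein of the U3 particle, changed by -0.90 ± 0.18.

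The 4 genes of the box H/ACA particle, which makes pseudouridine, fell as well, against 13.4% of all genes, but to unlike degrees. Gar1 read -3.38, -3.32, -3.81 and -3.59 after withdrawal, -2.07, -2.31, -2.89 and -2.28 with compound 6, and -1.42, -1.32, -3.06 and -1.61 with vehicle. No withdrawn array reached a vehicle array, and the change of -1.67 ± 0.27 (adjusted p = 0.000560) was the largest of the 44, so that the ratio fell by 68.6%. Nop10, the smallest protein of the particle, read 0.34, 0.27, -0.12 and 0.08 after withdrawal, 0.71, 0.67, 0.41 and 0.61 with compound 6, and 0.77, 0.84, 0.11 and 0.71 with vehicle. Vehicle F lay among the withdrawn arrays, and the change was -0.47 ± 0.14 (adjusted p = 0.0225), and it did not pass without withdrawn array F or G or without vehicle D, E or G (adjusted p = 0.0577 to 0.0934). Nhp2 and Dkc1, the pseudouridine synthase itself, changed by -1.60 ± 0.26 and -0.84 ± 0.21.

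The 6 nucleolar chaperones and regulators all fell, against 13.4% of all genes, with a median change of -1.11. Gnl3, nucleostemin, a nucleolar GTP-binding protein of stem and cancer cells, read -2.49, -2.32, -2.56 and -2.36 after withdrawal, -1.33, -1.43, -1.73 and -1.30 with compound 6, and -1.03, -0.87, -2.17 and -1.07 with vehicle. Its withdrawn arrays lay below all others of the set, with a change of -1.15 ± 0.19 (adjusted p = 0.000633). Npm1, nucleophosmin, the abundant chaperone of the granular nucleolus, read -3.11, -3.12, -3.67 and -3.41 after withdrawal, -2.47, -2.71, -3.30 and -2.93 with compound 6, and -1.89, -1.88, -3.30 and -2.08 with vehicle. Vehicle F and compound 6 F both fell within the withdrawn range, and the change was -1.04 ± 0.25 (adjusted p = 0.00714). Ncl, nucleolin, read -2.45, -2.37, -2.67 and -2.48 after withdrawal, -1.79, -2.48, -2.50 and -2.03 with compound 6, and -1.09, -1.06, -2.34 and -1.17 with vehicle. The withdrawn arrays did not overlap the vehicle arrays, with a change of -1.08 ± 0.22 (adjusted p = 0.00242), whereas a dimmer probe of Ncl gave -0.37. Mybbp1a, Nolc1 and the helicase gene Ddx21 changed by -1.42, -1.37 and -0.79.

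Of the 10 factors of small-subunit processing, 8 fell, against 13.4% of all genes, with a median of -0.61, the smallest of the 6 roles. Heatr1, a component of the early small-subunit processome, read -2.13, -2.17, -2.64 and -2.43 after withdrawal, -1.01, -1.13, -1.56 and -1.05 with compound 6, and -0.64, -0.69, -1.85 and -0.79 with vehicle. The withdrawn arrays lay below all others of the set, with a change of -1.35 ± 0.20 (adjusted p = 0.000365). Utp20, whose promoter window is printed above, read -1.86, -1.82, -1.92 and -1.91 after withdrawal, -1.38, -1.48, -1.81 and -1.43 with compound 6, and -0.92, -0.90, -1.83 and -1.10 with vehicle. Vehicle F lay within the withdrawn range and the other vehicle arrays above it, and the change was -0.69 ± 0.15 (adjusted p = 0.00466). Nob1, the endonuclease that makes the mature end of the small-subunit RNA in the cytoplasm, read -0.66, -0.51, -0.69 and -0.47 after withdrawal, -0.17, -0.36, -0.60 and -0.21 with compound 6, and -0.27, -0.24, -0.62 and -0.17 with vehicle. The groups overlapped, and the change of -0.26 ± 0.11 did not pass (adjusted p = 0.106, and 0.0127 with the block). Utp15, a subunit that links the processome to RNA polymerase I transcription, read -0.51, -0.40, -0.74 and -0.77 after withdrawal, -0.10, -0.32, -0.40 and -0.25 with compound 6, and -0.16, -0.10, -0.58 and -0.34 with vehicle. These groups overlapped too, with -0.31 ± 0.11 (adjusted p = 0.0520, and 0.00298 with the block). The other 6 members of the role (Noc4l, Wdr75, Wdr43, Nop14, Rrp12 and Ddx10) changed by -0.89 to -0.48.

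Of the 14 factors of large-subunit processing, 13 fell, against 13.4% of all genes, with a median of -0.85. Mrto4, which holds the place of a stalk protein on the nascent subunit, had the most extreme test of all members. It read -1.74, -1.82, -2.03 and -1.86 after withdrawal, -1.41, -1.34, -1.49 and -1.32 with compound 6, and -0.77, -0.72, -1.53 and -0.90 with vehicle. The withdrawn arrays were below all others of the set, and the compound 6 arrays D, E and G were below vehicles D, E and G, with a change after withdrawal of -0.88 ± 0.12 (adjusted p = 0.000243). Pes1, Bop1 and Wdr12 form the PeBoW complex. Pes1 read -3.06, -2.96, -3.03 and -2.90 after withdrawal, -2.18, -2.15, -2.46 and -2.05 with compound 6, and -2.14, -1.96, -2.53 and -2.04 with vehicle. Its withdrawn arrays stood apart and its compound 6 and vehicle arrays overlapped, with a change of -0.82 ± 0.13 after withdrawal (adjusted p = 0.000485). Bop1 changed by -0.34 ± 0.09 and Wdr12 by -0.73 ± 0.17. The Wdr12 probe used maps to chromosome 7 in mm9 although the gene lies on chromosome 1; its other, dimmer probe, which maps to chromosome 1, changed by -0.64.

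Noc3l, a partner of the Noc proteins that accompany the large subunit out of the nucleolus in yeast, was the exception. It read -0.50, -0.76, -0.73 and -0.71 after withdrawal, -0.19, -0.32, -0.25 and -0.36 with compound 6, and -0.59, -1.02, -0.75 and -0.82 with vehicle. The compound 6 arrays were above every withdrawn and vehicle array, and the withdrawn arrays overlapped vehicle. Its change after withdrawal was 0.12 ± 0.11 (95% interval -0.11 to 0.35). Its relatives Noc2l and Noc4l changed by -1.18 ± 0.24 and -0.89 ± 0.20. The remaining members of the role ran from -1.63 ± 0.24 (Grwd1, a histone-binding WD-repeat protein) through -1.15 (Nop2, an RNA methyltransferase), -0.97 (Rrp1b), -0.92 (Ftsj3), -0.89 (Nip7), -0.80 (Ebna1bp2) and -0.66 (Nop16) to -0.59 (Ddx18, a helicase). Other probes of Grwd1 and Pes1 gave -0.76 and -0.23.

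With group and set as terms, compound 6 moved few of these genes past the threshold, but the count depended on the fit. Of 44 members, 5 fell (Tcof1, Ncl, Polr1a, Mrto4 and Ddx18) and 1 rose (Noc3l). Of all genes 13.4% passed as lower and 11.4% as higher, so the shares of members were then close to or below those of all genes. With the letter as a block 19 fell, at 23.8% of all genes. Without vehicle F 34 fell, at 20.2%, and without vehicle E none, at 9.17%. With all arrays and no block the median change was -0.24, against -0.04 over all genes. Of the 44 changes 41 were negative, against 12034 of 21372 genes. The changes were -0.85 ± 0.24 for Tcof1 (adjusted p = 0.0139), -0.79 ± 0.22 for Ncl (adjusted p = 0.0129), -0.61 ± 0.20 for Polr1a (adjusted p = 0.0330), -0.41 ± 0.12 for Mrto4 (adjusted p = 0.0211) and -0.34 ± 0.11 for Ddx18 (adjusted p = 0.0374). Ddx18 read -0.95, -1.01, -0.97 and -0.88 with compound 6, and -0.46, -0.49, -1.08 and -0.43 with vehicle, so its groups overlapped at vehicle F. None of the 5 had groups that did not overlap, and no other member was lower without overlap, a pattern that 10.9% of all genes showed. The dimmer probe of Ncl changed by -0.10 and the mean over the probes of Polr1a by -0.18 (adjusted p = 0.341). Dimmer probes of Tcof1 and Ddx18 changed by -0.40 and -0.24. A dimmer probe of Mrto4, which maps to chromosome 12 in mm9 although the gene lies on chromosome 4, changed by -0.54.

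Noc3l rose by 0.51 ± 0.11 (adjusted p = 0.00231), a 1.43-fold higher ratio. It was higher in 4 of 4 letters and was the 1 member whose compound 6 arrays all lay above the vehicle arrays, a pattern that 8.99% of all genes showed. It was higher, with an adjusted p below 0.05, under every alternative tried.

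The count of 5 depended on single arrays and on whether letters were blocked. The median difference was -0.41, -0.45, 0.13 and -0.28 in letters D, E, F and G, and in letter F 9 of 44 differences were negative, against 40, 43 and 39 in letters D, E and G. Of all 21372 genes, 11895, 11829, 10912 and 11862 were lower in letters D, E, F and G. Without vehicle F, 34 members fell, the 5 among them, with a median of -0.48, at a background of 20.2% of all genes; the largest changes were then -1.22 for Tcof1 and -1.09 for Ncl, and Myc changed by -0.44 ± 0.13 (adjusted p = 0.0174). Without vehicle E no member fell by limma, at a background of 9.17% lower and 8.31% higher, with adjusted p = 0.0529 for Ncl. When vehicle D, vehicle G or compound 6 F was left out, 1 member fell, at 9.74%, 9.11% and 9.45% of all genes. When compound 6 E was left out, 3 members fell, at 11.2% of all genes. With the letter as a block 19 members fell, the 5 among them, at a background of 23.8% lower and 17.4% higher, and Noc3l rose. Those added by the block were Polr1c, Polr1e, Nop58, Nhp2, Gar1, Fbl, Npm1, Rrp1b, Wdr12, Wdr75, Utp20, Mybbp1a, Ftsj3 and Ebna1bp2. Without every array of letter F, 31 fell, at 17.7% of all genes. Within slides 3, 4 and 5 the median difference was -0.44 (2 compound 6 arrays, 1 vehicle array), -0.72 (1 and 1) and 0.10 (1 and 2). Slide 4 sets compound 6 F, the lowest array of its group, against vehicle G, and slide 5 holds vehicle F. When arrays of the compound 6 and vehicle groups alone were fitted, none passed as lower, at 7.04% of all genes. With no set term none did either, at 11.0%, and the median change was 0.13.

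**Figure D3:**
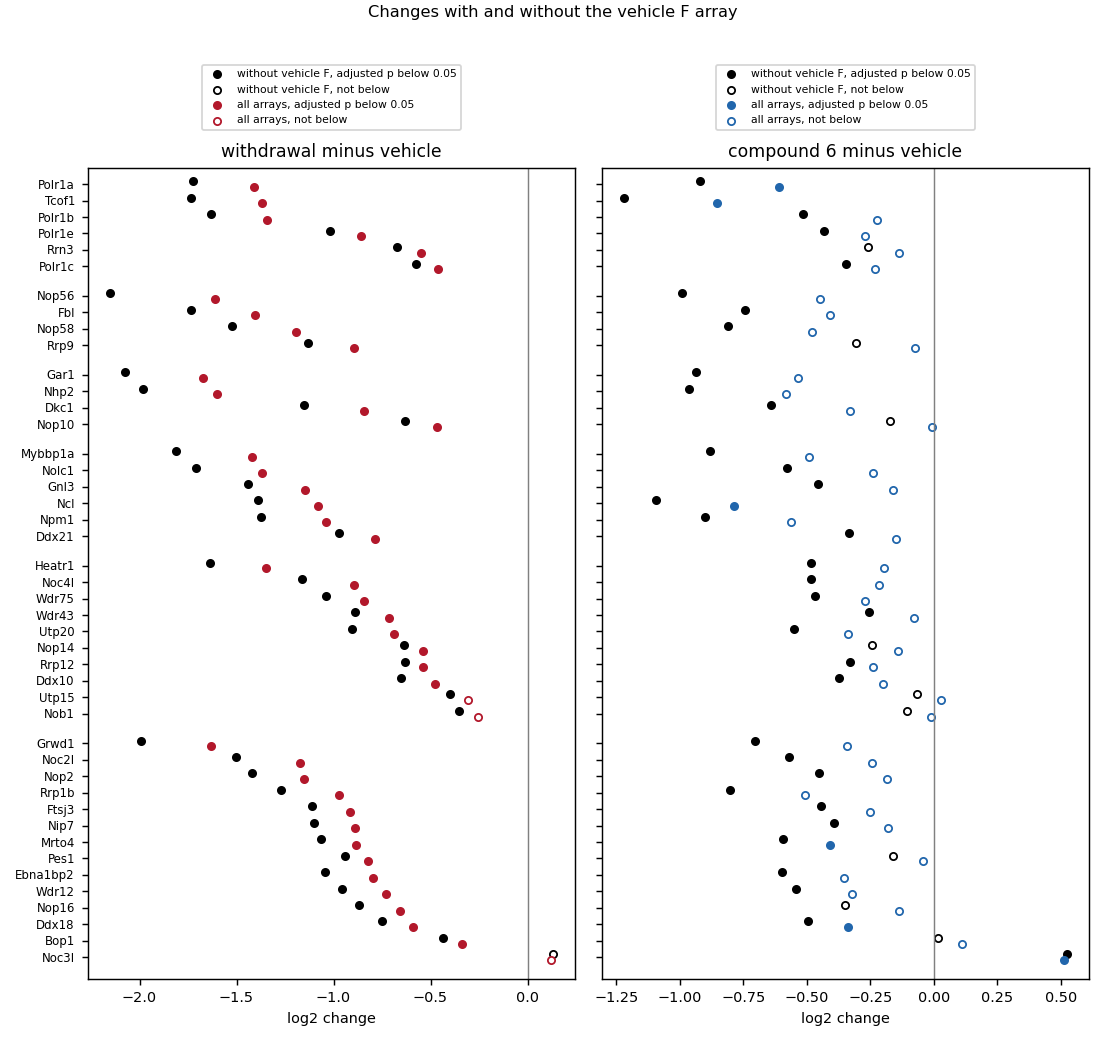
Change of each of the 44 genes against vehicle (log2, x axis) after withdrawal (left) and with compound 6 (right), with all arrays (coloured) and without vehicle F (black); filled points have an adjusted p below 0.05. Without vehicle F every point but that of Noc3l moves to the left, and 34 in place of 5 are filled and negative with compound 6.

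Other lists moved with compound 6. Of 15 proliferation genes 5 fell and 1 rose (median -0.97), where 13.4% of all genes fell and 11.4% rose. Within letters D, E, F and G their median difference was -0.86, -1.18, 0.11 and -1.61. Of 9 leukocyte markers 6 rose and none fell, and of 8 fibroblast markers 5 rose and none fell. Of 18 intestinal epithelium markers 3 fell and 3 rose, and of 4 endothelium markers 1 fell and 1 rose. The list median of the leukocyte markers lay between -1.96 and -1.78 on compound 6 arrays, and between -2.69 and -2.24 on vehicle arrays of the same letters. That of the fibroblast markers lay between -6.03 and -5.72 with compound 6 and between -6.20 and -5.87 with vehicle. After withdrawal 12 of the 15 proliferation genes fell (median -1.38), with 1 leukocyte marker and no fibroblast marker higher, where 13.4% of all genes fell and 7.25% rose. Of the intestinal epithelium markers 4 fell and 2 rose, and of the endothelium markers 1 rose. The part of these lists in the members' changes was not tested.

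A direct comparison of compound 6 with withdrawal asks whether the inhibitor and the loss of the inducer left these genes at unlike levels. They did: 30 of 44 members were higher with compound 6 and none was lower, where 7.31% of all genes passed as higher and 7.72% as lower. All 44 differences were positive, with a median of 0.58 against 0.02 over all genes, from 0.23 (Polr1c) to 1.29 (Grwd1). Of all 21372 genes, 9962 had a negative difference. For 36 members every compound 6 array lay above every withdrawn array, as for 9.98% of all genes, and 11.0% of all genes lay below without overlap. With the letter as a block 43 passed, all but Ncl, at a background of 19.4%. With no set term 6 passed, at a background of 2.44%, and the median difference was 0.58. The medians within letters D, E, F and G were 0.64, 0.59, 0.49 and 0.77, and within slides 3 and 5 they were 0.62 and 0.72.

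The most extreme tests were those of Pes1 (0.78 ± 0.13, adjusted p = 0.000435), Heatr1 (1.15 ± 0.20, adjusted p = 0.000727) and Polr1b (1.12 ± 0.20, adjusted p = 0.00111). The compound 6 arrays of these genes, given above, lay above every withdrawn array. By role, the counts that passed as higher stand against 7.31% of all genes. The median difference was 0.91 for box C/D and U3 proteins (4 of 4 passed), 0.78 for nucleolar chaperones (4 of 6) and 0.77 for box H/ACA proteins (3 of 4). It was 0.55 for RNA polymerase I (4 of 6), 0.50 for large-subunit factors (9 of 14) and 0.37 for small-subunit factors (6 of 10). Ncl differed by 0.29 ± 0.22 (95% interval -0.16 to 0.75) and Npm1 by 0.48 ± 0.25 (-0.05 to 1.00), and neither passed. Among the genes given array by array, Nop56, Nop58, Nop10, Noc3l and Utp15 passed with all arrays, at adjusted p = 0.0360, 0.0358, 0.0311, 0.0206 and 0.0435, but each lost the call when any of several single compound 6 or withdrawn arrays was left out (adjusted p = 0.0501 to 0.138). Myc was 1.96 ± 0.22 higher with compound 6 than after withdrawal (adjusted p = 9.65e-06).

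**Figure D4:**
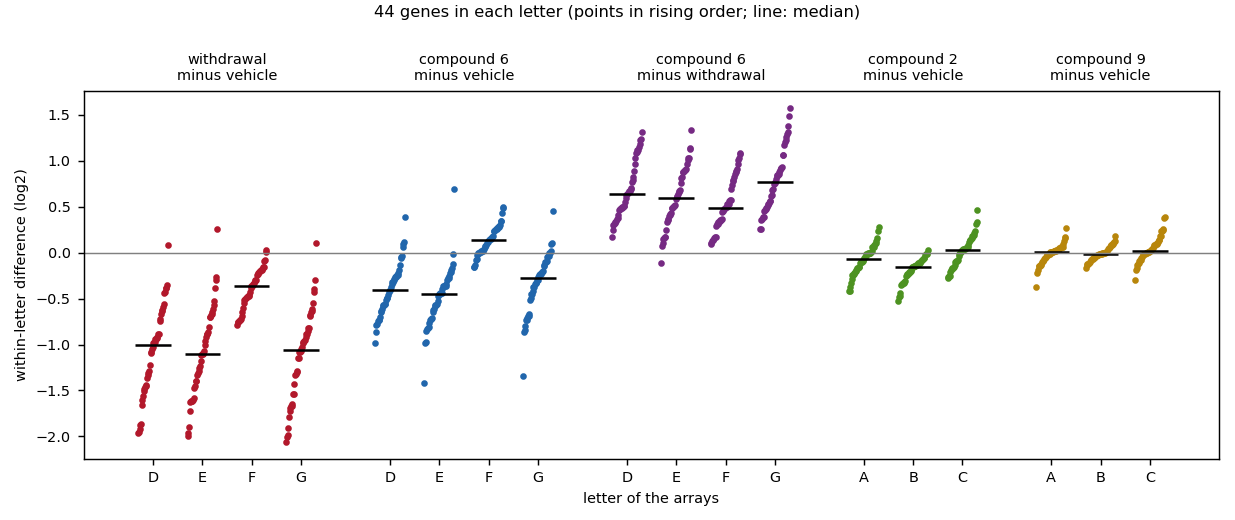
Difference of each of the 44 genes between 2 arrays of the same letter (log2), for withdrawal minus vehicle, compound 6 minus vehicle, compound 6 minus withdrawal, compound 2 minus vehicle and compound 9 minus vehicle; points are genes in rising order and black lines are medians. The medians after withdrawal are -1.01, -1.10, -0.36 and -1.06, those for compound 6 minus withdrawal are positive in all 4 letters, and those for compound 9 are 0.01, -0.01 and 0.02.

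With compound 2 no member passed in limma in either direction, where 2.02% of all genes passed as lower and 3.31% as higher; none had an unadjusted p below 0.05. The median change was -0.07, and changes ran from -0.40 to 0.20. The baseline was low here: the member median was -2.02 to -1.92 on vehicles A to C. On withdrawn arrays it was -2.05 to -1.80. Whether the members could fall further from that level was not tested. In 12 of 44 members the compound 2 arrays all lay below the vehicle arrays, a larger share than the 12.1% of all genes. In 0 members did they all lie above, against 14.0% of all genes. The members share these arrays, so they are not independent observations. The median difference was -0.07, -0.16 and 0.03 in letters A, B and C, with 30, 43 and 19 of 44 negative. Of all 21372 genes, 10333, 10909 and 10483 were negative there. The most extreme tests were those of Nob1, Polr1a and Nop58. Nob1 read -0.99, -1.28 and -0.95 with compound 2, and -0.93, -0.81 and -0.69 with vehicle, without overlap; its change was -0.26 ± 0.13 (adjusted p = 0.282, and 0.0483 with the block). It was the 1 member that passed with the letter as a block, at a background of 7.98% lower and 9.41% higher. Polr1a read -3.15, -3.10 and -3.08 with compound 2, and -2.73, -2.58 and -2.81 with vehicle, a change of -0.40 ± 0.23 (adjusted p = 0.394). Nop58 read -2.85, -2.87 and -2.85 with compound 2, and -2.52, -2.43 and -2.64 with vehicle, a change of -0.33 ± 0.26 (adjusted p = 0.581). In both genes the groups did not overlap, and the errors are those of a fit in which all groups share a spread.

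With compound 9 no member passed either, and neither did any other gene (0.00% of all genes lower and 0.00% higher in limma). At an unadjusted p below 0.05 no member passed. The vehicle arrays were again A to C, which lay at the level of the withdrawn arrays. The median change was 0.00 and changes ran from -0.11 to 0.14, with no member whose groups did not overlap, as 2.58% of all genes did when lower and 2.64% when higher. With the letter as a block no member passed, at 0.00% lower and 0.00468% higher. Utp15, Pes1 and Utp20 had the most extreme tests. Utp15 read -0.61, -0.63 and -0.31 with compound 9, and -0.67, -0.68 and -0.56 with vehicle, a change of 0.12 ± 0.12 (95% interval -0.14 to 0.38). Pes1 read -1.84, -1.38 and -1.76 with compound 9, and -1.75, -1.32 and -1.57 with vehicle, a change of -0.11 ± 0.15 (-0.42 to 0.20). Utp20 read -2.50, -2.57 and -2.36 with compound 9, and -2.77, -2.46 and -2.60 with vehicle, a change of 0.13 ± 0.18 (-0.24 to 0.51). In all 3 genes the groups overlapped. The 95% intervals of the 44 members reached from -0.94 to 0.82, the widest being that of Nop56.

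The 3 compounds were compared in 3 pairs at the matched dose of 2 µM and time of 24 h. Compound 9 and compound 2 shared letters, and no member differed in limma, where 3.31% of all genes were lower and 1.49% higher with compound 9, and no member had an unadjusted p below 0.05. With the block none passed, at 9.72% lower and 6.22% higher. The median difference was 0.07, and single differences ran from -0.10 to 0.46 (Polr1a, 0.46 ± 0.23, 95% interval -0.03 to 0.95, adjusted p = 0.326). In 10 members every compound 9 array lay above every compound 2 array, and in 1 below, against 11.3% and 13.9% of all genes. Compound 6 was run with other letters than compounds 2 and 9, so each was taken relative to its own vehicle arrays. Those vehicle arrays differed in level between the sets, and the part of this in the comparisons was not tested. Between compound 6 and compound 2 no member passed, at a background of 0.220% lower and 0.346% higher, with a median of -0.18; at an unadjusted p below 0.05, 2 were lower and 1 higher. The most extreme was Noc3l (0.46 ± 0.17, 95% interval 0.11 to 0.81, adjusted p = 0.198). With the block none passed, at 4.62% lower and 4.56% higher. Between compound 6 and compound 9 none passed, at 2.67% lower and 3.84% higher, with a median of -0.24; at an unadjusted p below 0.05, 4 were lower and 1 higher. Noc3l differed by 0.55 ± 0.17 (adjusted p = 0.0561) and Ncl by -0.88 ± 0.33 (adjusted p = 0.124). Once letters were blocked, 4 members were lower with compound 6 than with compound 9 (Polr1a, Tcof1, Ncl and Npm1) and Noc3l was higher, at 11.2% and 10.6% of all genes. Without vehicle F, 14 members were lower with compound 6 than with compound 2 (4.41% of all genes) and 23 were lower than with compound 9 (9.58%). With no set term, which sets the levels of letters D to G directly against those of A to C, 24 members were higher with compound 6 than with compound 2 (19.9% of all genes) and 15 were higher than with compound 9 (20.9%). An interval that includes 0 does not show that the compounds act alike.

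Beyond the members, 84 of 88 other ribosome biogenesis factors on a list from general knowledge were measured. This list too was chosen with earlier results of these data known. After withdrawal 62 of the 84 fell and none rose, at a background of 13.4% lower and 7.25% higher, with a median of -0.47. The largest changes were those of Ppan (-1.58 ± 0.26), a large-subunit factor, Rrp15 (-1.46 ± 0.21), Exosc6 (-1.22 ± 0.24), a subunit of the RNA exosome, and Cd3eap (-1.18 ± 0.16), a subunit of RNA polymerase I. Those nearest to 0 were Gnl3l (-0.01 ± 0.16) and Exosc9 (-0.02 ± 0.10). With compound 6, 15 fell and 3 rose, at a background of 13.4% lower and 11.4% higher, with a median of -0.15. With the letter as a block 33 fell and 8 rose, at 23.8% and 17.4% of all genes. Cd3eap (-0.75 ± 0.16, adjusted p = 0.00248), Utp14a (-0.72 ± 0.18, adjusted p = 0.00671), Exosc5 (-0.58 ± 0.11) and Pelp1 (-0.57 ± 0.14) changed most, and Lsg1 (0.00 ± 0.12) and Utp11l (0.01 ± 0.12) least. Compared directly, 39 of the 84 were higher with compound 6 than after withdrawal and none was lower, at a background of 7.31% higher and 7.72% lower.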

How the data were processed

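RNA of 21 organoid samples was hybridised to 2-colour Agilent arrays, the sample in Cy3 and a mouse reference RNA in Cy5 on every array, with no dye swap. The authors deposited scanner intensities from Agilent Feature Extraction 10.7.3.1, per the file headers, with log10 ratios of reference over sample, and a table of log2 ratios of sample over reference whose normalization no label or header states; its column medians ran from -0.00743 to 0.08896, and it was used as an alternative. From the mean and background intensities, normexp (offset 50) and loess within each array were computed in limma 3.58.1 (R 4.3.3). Control spots (3671 of 62976) were left out and spots of a probe averaged. Probes called well above background in the Cy3 channel of 3 or more arrays were kept (29631 probes), and the brightest was taken per gene (21372 genes). The number of arrays limits the precision. Between 42.6% and 51.9% of spots were well above background in Cy3.

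All arrays entered 1 limma model with group and set (letters A to C or D to G) as terms, and p-values were adjusted by Benjamini-Hochberg over all genes with a threshold of 0.05. The labels do not say that letters are separate cultures, so p-values reflect how these samples vary, which may be technical only. Arrays of the same letter deviated together (21 pairs, r 0.208 to 0.749, against a median of -0.18 for other letters), so the letter was tried as a replicate block. The members and gene lists were chosen with earlier results of these data known. Values on each array of the groups described are given for the genes with the most and least extreme test after withdrawal in each role. The same holds for the 3 most extreme in each compound comparison and in compound 6 minus withdrawal. Myc is given on every array. Polr1b, Tcof1, Ncl and others named by these rules are included, and Ddx18 was added because it passed with compound 6. Alternatives were Agilent's ratios, the deposited table, Cy3 alone, another offset, other probe filters, the mean over probes, slide as a block, fewer arrays and no set term. Figures used matplotlib 3.10.9.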

Additional observations from a re-analysis of the deposited data

Results flagged for a closer look

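In 23 of 87 groups of 4 arrays tested, 1 array stood apart from the other 3 by Dixon's ratio. Chance gives about 1 in 20 for a single group. These groups share arrays and genes, so the flags are not independent and their number cannot be set against chance. The array was vehicle F in 17, compound 6 F in 5 and a withdrawn array in 1. On vehicle F the median level of the 44 genes was -1.73, and by role it was -2.17 for box C/D and U3 proteins, -1.80 for box H/ACA proteins, -1.69 for large-subunit factors and -2.37 for nucleolar chaperones. The proliferation genes had a median of -3.83 there. Single genes set apart on vehicle F were Polr1a (-2.17), Polr1b (-0.98), Tcof1 (-2.25), Fbl (-1.81), Nop56 (-2.95), Nop58 (-2.53), Gar1 (-3.06), Gnl3 (-2.17), Npm1 (-3.30), Ncl (-2.34) and Heatr1 (-1.85).

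On compound 6 F the median of the members was -1.52, that of box H/ACA proteins -1.61, that of large-subunit factors -1.49 and that of RNA polymerase I genes -1.09, and Fbl read -1.67. Noc3l on withdrawn array D, at -0.50, was the 1 flag outside letter F.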

How the results depend on the processing

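In parentheses after a count of members stands the share of all genes tested that passed in the same direction under the same setting. After withdrawal 38 to 43 members fell when 1 array at a time was left out (7.99% to 21.7%) and 43 with the letter as a replicate block (23.8%). The number was 31 with the arrays of the compared groups alone (5.99%) and 7 with no set term (5.30%). With compound 6 the number lower was 5 (13.4%), and 0 to 34 when 1 array was left out (9.11% to 20.2%). It was 19 with the block (23.8%), 3 with Agilent's log ratios (11.7%), with the deposited table (10.8%) and with the mean over probes (13.3%), 0 with no set term (11.0%), 0 with the arrays of the compared groups alone (7.04%), and 31 without letter F (17.7%). With the block added to that, an alternative chosen after seeing the data, it was 35 (25.7%). The 1 higher member with compound 6 stayed at 1 throughout leaving-out (8.31% to 14.1%). With compound 2 the number lower was 1 with the block (7.98%), 7 with no set term (7.24%), 2 without letter F (4.73%) and 8 with the block added (10.1%). Compound 6 exceeded withdrawal in 20 to 34 members when 1 array was left out (5.03% to 7.38%) and in 6 with no set term (2.44%). For compound 9 minus compound 2, 1 was higher with the compared arrays alone (0.763%), 2 without letter F (3.66%) and 6 with the block added (8.37%).

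For compound 6 minus compound 2, 0 to 14 were lower when 1 array was left out (0.0795% to 4.41%), 16 without letter F (4.50%), 22 with the block added (9.49%), and 1 lower (22.6%) and 24 higher (19.9%) with no set term. For compound 6 minus compound 9, 0 to 23 were lower (1.39% to 9.58%) and 0 to 1 higher (1.99% to 7.34%) when 1 array was left out. There were 4 lower (11.2%) and 1 higher (10.6%) with the block, 23 lower without letter F (9.12%), 28 lower (15.9%) and 1 higher (12.3%) with the block added, 1 lower and 15 higher with no set term (20.9% each), and 1 higher with Agilent's log ratios (2.33%), with Cy3 alone (3.00%) and with probes well above background on all arrays (5.10%).

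With no set term, compound 6 minus compound 2 or 9 is by construction the plain difference of levels between letters D to G and A to C, and each group minus vehicle uses all 7 vehicle arrays, those of the other set included. Of the 20 genes given array by array under the stated rule, the change then had the opposite sign in 13 for compound 6 minus vehicle, 9 for compound 2 minus vehicle, 11 for compound 9 minus vehicle, 16 for compound 6 minus compound 2 and 17 for compound 6 minus compound 9, and in 0 for withdrawal minus vehicle, compound 6 minus withdrawal and compound 9 minus compound 2. Those that also passed the threshold with or without the set term were, for compound 6 minus vehicle, Polr1a (0.0194) and Tcof1 (0.0412). For compound 6 minus compound 2 they were Polr1a (1.26), Fbl (1.39), Gnl3 (1.11), Nop58 (0.84), Pes1 (-0.55), Utp20 (1.02), Polr1b (1.15) and Myc (1.46). For compound 6 minus compound 9 they were Fbl (1.21), Heatr1 (1.34), Gnl3 (1.11), Pes1 (-0.55), Utp20 (0.95), Polr1b (1.25) and Myc (1.44).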
